A study of Homo sapiens with 8 samples.

Results

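The RNA sites described here are the binding sites of G3BP1 in untreated HEK293T cells that were still called as sites after treatment with the quadruplex ligand PDS. They were chosen by overlap: each is a peak of the untreated list that shared at least 1 nt on the same strand with a peak of the PDS list, whatever its enrichment. The rule was met by 732 of the 1421 untreated peaks, which is 51.5% of that list (exact 95% interval 48.9 to 54.1%, counting error only), and the PDS list held 2925 peaks. Below they are called kept peaks, and the PDS peak a kept peak meets is called its partner.

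G3BP1 is an RNA-binding protein of the cytoplasm that drives the assembly of stress granules, condensates of untranslated mRNA and protein. Guanine quadruplexes are stacked structures that G-rich RNA can fold into, and proteins with arginine-glycine repeats, a class to which G3BP1 belongs, are known to bind them. The labels do not spell out PDS, an abbreviation commonly used for pyridostatin, a ligand designed to stack on guanine quadruplexes.

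HEK293T is an established human embryonic kidney cell line. Crosslinked RNA was recovered with an antibody to G3BP1 and sequenced beside input made without antibody (seCLIP, a form of crosslinking and immunoprecipitation), from untreated cells (Ctrl) and from cells exposed to PDS, added at 20 µM and 12 h ahead of the crosslinking. The 8 libraries form 4 groups, immunoprecipitate and input for each treatment, with 2 replicates a group. The authors' values used here are 1 peak list per treatment, with 2 values per peak, read as the log2 fold over input and the −log10 p. No peak has a value per replicate and its read depth is unknown, so every difference below is a description without a test. Intervals given for shares cover counting error only and take peaks as independent, which peaks of 1 gene are not. Both lists begin at a log2 fold of 3, so a kept peak near that limit has little room for a lower partner. Coordinates are hg19 and counted from 1. Gene names come from general knowledge of where well-known genes lie in hg19, since an hg19 annotation was not used here; 495 kept peaks (67.6%) lay in 124 genes named in this way. The names were searched for where kept peaks were dense and for the genes of the lists below, so peaks in named genes are not a random sample: their median PDS minus Ctrl difference in log2 fold was 0.35, against 0.09 for the other kept peaks. Actins, GAPDH and ribosomal proteins also have near-identical copies elsewhere in the genome, and how reads that match several copies were treated is not known, so their values are uncertain.

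Kept peaks were spread over many RNAs but concentrated in a few. They lay in 333 of the 667 loci with an untreated peak. A locus is a run of peaks of one strand, from both lists together, chained over gaps of up to 10000 nt. Of these loci, 195 held 1 kept peak, whereas 33 loci held at least 5 each and together 286 kept peaks (39.1%). The 10 genes with most kept peaks held 161 of them. They encode proteins of the cytoskeleton (FLNA, SPTBN1, PLEC), of DNA repair and chromatin (PRKDC, PARP1, CHD4), of translation and secretion (EIF4G1, RRBP1) and of metabolism (ALDOA, FASN).

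FLNA, which encodes the actin crosslinker filamin A on the minus strand of chromosome X, held the most: 34 of its 43 untreated peaks were kept (79.1%, against 51.5% over the whole list). PRKDC, the catalytic subunit of DNA-dependent protein kinase, kept 23 of 27 (85.2%). SPTBN1, the non-erythroid beta spectrin of the membrane skeleton, kept 22 of 27 (81.5%). These shares stood above that of the list, but the genes were picked for their many kept peaks, which favours a high share. In loci with 10 or more untreated peaks, 66.3% of the untreated peaks were kept. EIF4G1, the scaffold of the cap-binding complex, kept 17 of 26 (65.4%). PLEC, which encodes the cytolinker plectin, had 32 untreated peaks and kept 14 (43.8%). Plectin thus lost more peaks than it kept, although the PDS list held 48 peaks there.

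ALDOA, a glycolytic aldolase, kept 11 of 16 peaks (68.8%). The nucleosome remodeller CHD4 kept 10 of 15 (66.7%), the DNA break sensor PARP1 10 of 12 (83.3%) and the ribosome-binding protein RRBP1 of the endoplasmic reticulum 10 of 12 (83.3%). Fatty acid synthase, FASN, kept 10 of 19 (52.6%), close to the share of the list. Among the 34 genes with at least 5 kept peaks the kept share ran from 38.5% in CTNNB1, which encodes beta-catenin, to 100% in TNRC18 and EIF3B.

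**Figure D1:**
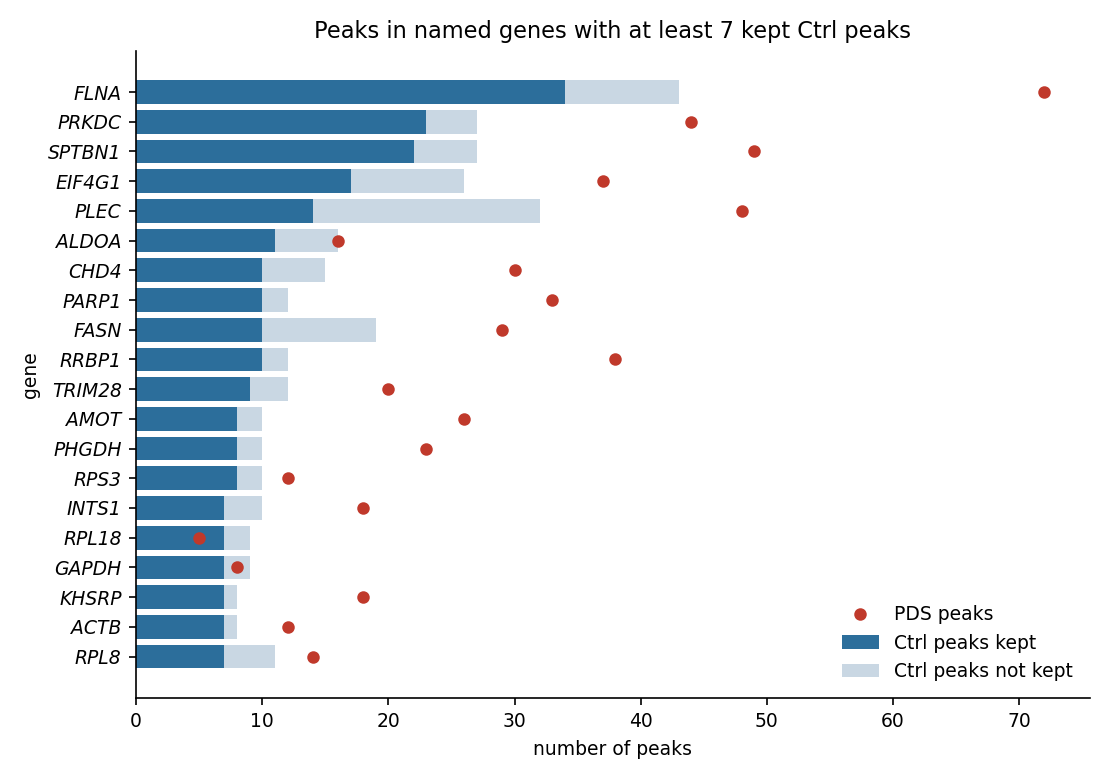
Number of peaks (horizontal axis) in named genes with at least 7 kept peaks, 1 of which is not drawn. Dark bars are untreated peaks kept under PDS, pale bars untreated peaks not kept, and red points all PDS peaks in the gene; FLNA leads with 34 kept of 43, PLEC kept 14 of 32, and in RPL18 the PDS list held only 5 peaks beside 9 untreated ones.

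Untreated peaks with neighbours were kept more often. Where a locus held a single untreated peak, 154 of 430 were kept (35.8%, exact 95% interval 31.3 to 40.5%). In loci with 2 untreated peaks the share was 48.4%, with 3 to 4 it was 55.6%, with 5 to 9 it was 60.6% and with 10 or more it was 66.3% (207 of 312, 60.8 to 71.6%). The median log2 fold of all untreated peaks went the same way, from 3.35 in single-peak loci to 3.83 in the largest. Crowding and enrichment thus moved together and their parts were not tested. PDS peaks also joined untreated peaks into loci. The number of untreated peaks per locus therefore depends partly on the list that defines kept peaks, and some of this rise may be built in. Sharing was often partial within a locus. Of 237 loci with more than 1 untreated peak, 60 kept all, 119 kept some and 58 kept none.

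Loci that kept everything were small. The largest held 5 untreated peaks each and lay in LDHB (lactate dehydrogenase B), in EIF3B (a core subunit of initiation factor 3) and in one stretch of PRKDC. LDHB held 6 untreated peaks in all, and the 1 outside this locus was not kept. With 4 of 4 kept came loci in GNAS, which encodes a G protein alpha subunit, in TNRC18, and a stretch of 49 nt on chromosome 17, minus strand, spanning 8076860 to 8076908. That stretch held 4 untreated but only 2 PDS peaks.

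How firmly a peak was called in untreated cells went with whether it was kept. Below a −log10 p of 7, 63 of 259 peaks were kept (24.3%). Between 10 and 15 the share was 53.5%, and from 50 upward it was 86.7% (39 of 45, 73.2 to 94.9%). All 8 untreated peaks at the highest value, 400, were kept, but 4 of them lay close together in RPL30. By log2 fold the share was 39.1% in the lowest bin, the 371 peaks nearest to 3, and 84.2% from 5 upward (32 of 38, 68.7 to 94.0%). It was not an even climb, with 70.6% between 4 and 4.5 and 58.0% between 4.5 and 5, intervals that overlap. At like fold the −log10 p still separated the peaks. Between a fold of 3 and 3.5, peaks with a −log10 p under that bin's median were kept in 27.6% (23.0 to 32.7%) and the others in 57.2% (51.7 to 62.5%). From a fold of 4 upward the shares were 56.4% and 81.5%. At a given fold −log10 p grows with the reads over a site, which follow RNA abundance as well as binding, and in these lists both cannot be told apart.

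**Figure D2:**
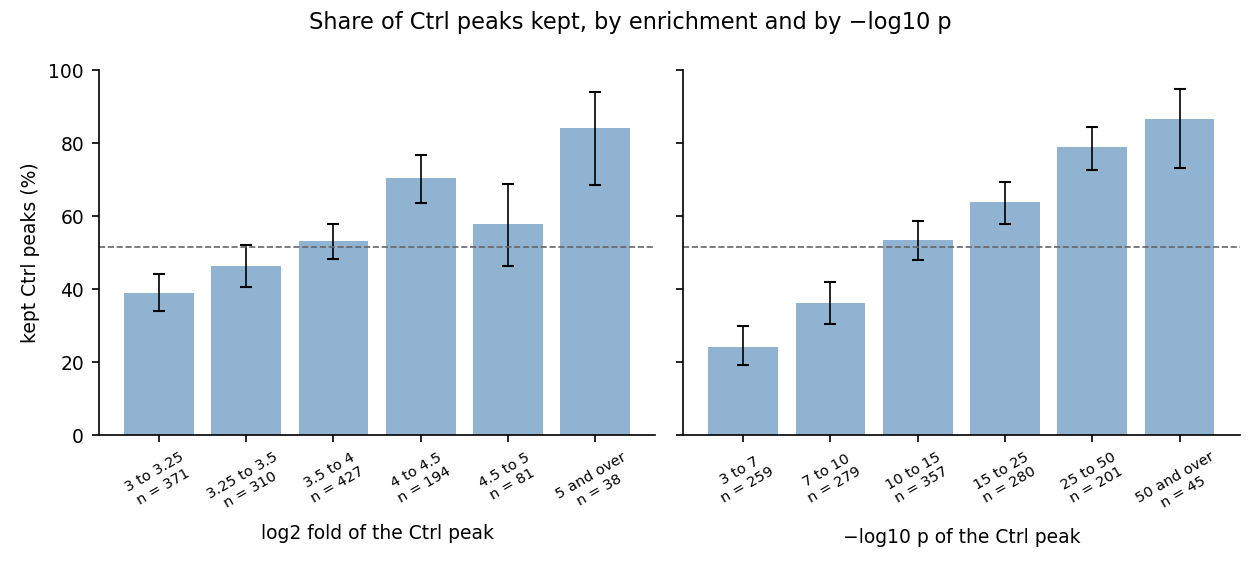
Percent of untreated peaks that were kept (vertical axis) in bins of the untreated peak's log2 fold over input (left) and of its −log10 p (right), with the number of peaks under each bar. Error bars are exact 95% binomial intervals and the dashed line is the share of the whole list, 51.5%; the share goes from 24.3% to 86.7% across the bins of −log10 p.

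Width did not separate kept from other peaks in the same way. The kept share was 54.3% for peaks under 20 nt, 48.1% for those of 50 to 75 nt and 52.4% for those of 150 nt and more. The median width was 76 nt for kept and 74 nt for other peaks. By strand, 435 of 796 peaks on the minus strand were kept (54.6%) and 297 of 625 on the plus strand (47.5%); without FLNA the minus-strand share was 53.3%. By chromosome the shares with at least 20 untreated peaks ran from 43.8% on chromosome 11 to 76.9% on chromosome 20 (20 of 26, 56.4 to 91.0%), where RRBP1 alone gave 10 of the 20.

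The kept peaks mostly reoccupied the same stretch rather than touching at an edge. In the median, 97.0% of the kept peak was covered by PDS peaks (quartiles 78.9 and 100%). Coverage was complete for 314 kept peaks (42.9%), at least 90% for 463 and under 50% for 60. In nucleotides, 47980 of the 58123 nt in kept peaks were covered (82.5%). The 5′ border of the PDS peak with the longest overlap lay within 10 nt of the untreated border in 394 cases (53.8%) and the 3′ border in 381 (52.0%). The median border offset was 0 nt at both ends, and both borders were identical in 6 peaks.

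Most kept peaks, 522 (71.3%), met 1 PDS peak, 161 met 2, 39 met 3, 9 met 4 and 1 met 5. The peak with 5 partners lies in SPTBN1 on chromosome 2 at 54856223 to 54856368. In the other direction, 794 PDS peaks met 1 untreated peak, 92 met 2 and 8 met 3, so some kept peaks share a partner. At the edge of the rule, 19 kept peaks overlapped by only 1 to 5 nt, with a median untreated log2 fold of 3.96, and 13 excluded peaks lay within 5 nt of a PDS peak without overlap, with a median of 3.71. The shortest overlaps, of 1 nt, were in ID4, an inhibitor of DNA-binding transcription factors, and in BCAP31, a protein of the endoplasmic reticulum. An overlap of 2 nt was found in 6 peaks, in RPL30, FLNA, EIF5A, PHB2, CKB and GAPDH; in RPL30 this is the whole width of the peak in both lists. The longest was 245 nt, on chromosome 1 (plus strand) at 145477161 to 145477405, followed by 208 nt in OSBP (oxysterol binding) and 202 nt in AGPS (ether lipid synthesis).

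At most kept peaks the partner was more enriched over input than the untreated peak. The most enriched partner stood higher in 487 of 732 kept peaks, 66.5%. The median log2 fold was 3.627 for the kept peaks and 4.001 for their partners, and the median difference, PDS minus Ctrl, was 0.25 (quartiles −0.15 and 0.75, range −1.88 to 2.51). The difference was within 0.5 of 0 for 385 peaks (52.6%), 1 or more above for 117 and 1 or more below for 13. With the longest-overlap partner the median difference was 0.20 with 63.8% higher, and in the 410 pairs of 1 untreated and 1 PDS peak it was 0.15 with 62.0% higher. Taking the most enriched of several partners favours a higher value by construction. The −log10 p was higher in the partner for 530 kept peaks (72.4%); it was 400 in 8 kept peaks and in the partners of 41.

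The difference depended on where the untreated peak started. In the lowest bin of untreated log2 fold, 130 of 145 partners were higher, with a median difference of 0.52. From 5 upward, 7 of 32 were higher and the median difference was −0.64. Some of this slope is built in, since both lists exclude values under 3 and a peak picked for a high value in 1 list has more room below it. Values at like untreated fold are therefore given for SPTBN1, FLNA and the larger gene lists; the other genes are given as measured, without that comparison. From a fold of 4 upward, all kept peaks had 87 of 216 partners higher (40.3%) and a median difference of −0.18; below 3.5 they had 240 of 289 higher (83.0%).

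**Figure D3:**
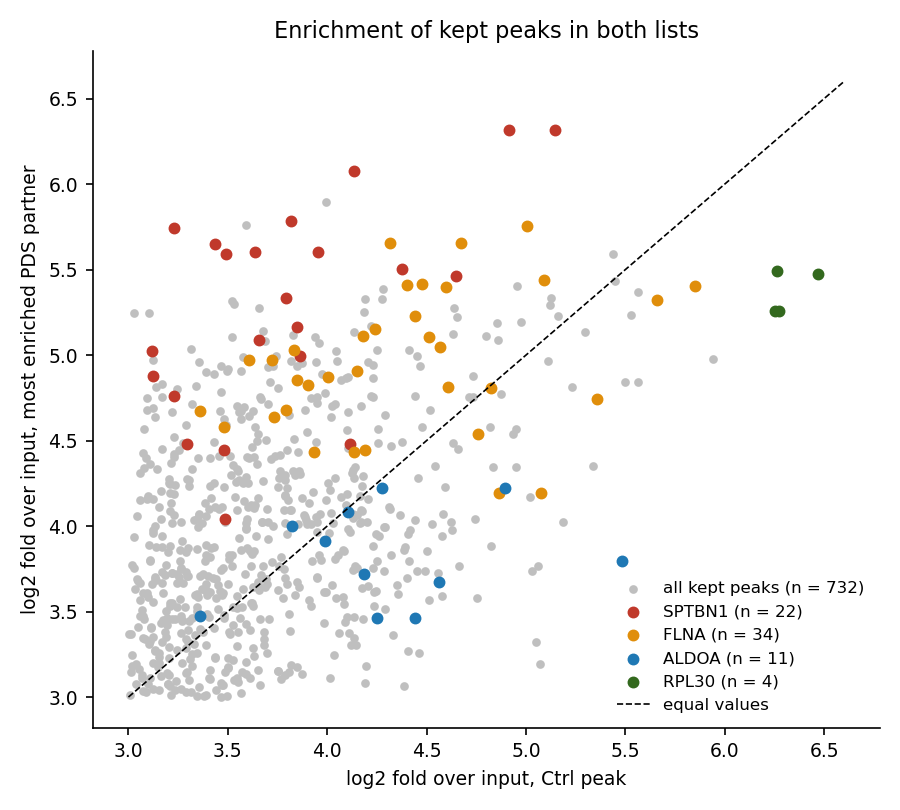
Log2 fold over input of each kept peak (horizontal axis) against that of its most enriched PDS partner (vertical axis). Grey points are all 732 kept peaks, coloured points those of 4 genes, and the dashed line marks equal values; all 22 SPTBN1 peaks lie above the line, all 4 RPL30 peaks below it, and ALDOA lies mostly below it.

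SPTBN1 had the largest median difference among genes with at least 5 kept peaks. All 22 kept peaks had a higher partner, with differences from 0.37 to 2.51 and a median of 1.48. Their untreated log2 fold ran from 3.12 to 5.15 (median 3.73) and that of their partners from 4.04 to 6.31 (median 5.398). The excess was present at each untreated level. In the 6 peaks that started at a fold of 4 or more the median difference was 1.15, where all kept peaks of that class had −0.18. With the longest-overlap partner, 21 of 22 were higher and the median was 1.41.

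The kept SPTBN1 peaks lay on the plus strand of chromosome 2 between 54853129 and 54893190. The largest difference of any kept peak was among them, at 54873415 to 54873519, where the log2 fold was 3.23 in Ctrl and 5.74 in PDS. The most enriched partner of any kept peak, 54880802 to 54880909 at 6.31, covered all of 54880806 to 54880899 (4.92 in Ctrl). It also met the first nucleotides of 54880900 to 54880986 (5.15 in Ctrl), where the longest-overlap partner had 5.34. Another 16 PDS peaks of the gene met no untreated peak; their median was 4.68, and they have no value in Ctrl to be compared with.

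FLNA behaved likewise with a smaller size. Its 34 kept peaks ran from 3.36 to 5.85 in Ctrl (median 4.36) and their partners from 4.19 to 5.76 in PDS (median 4.94). The difference was above 0 in 27 and had a median of 0.80. From an untreated fold of 4 upward, 17 of 24 were higher with a median of 0.54, above the −0.18 of all kept peaks of that class. The 7 lower ones included the most enriched untreated FLNA peak, at 153593785 to 153593854, with 5.85 in Ctrl and 5.403 in PDS.

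**Figure D4:**
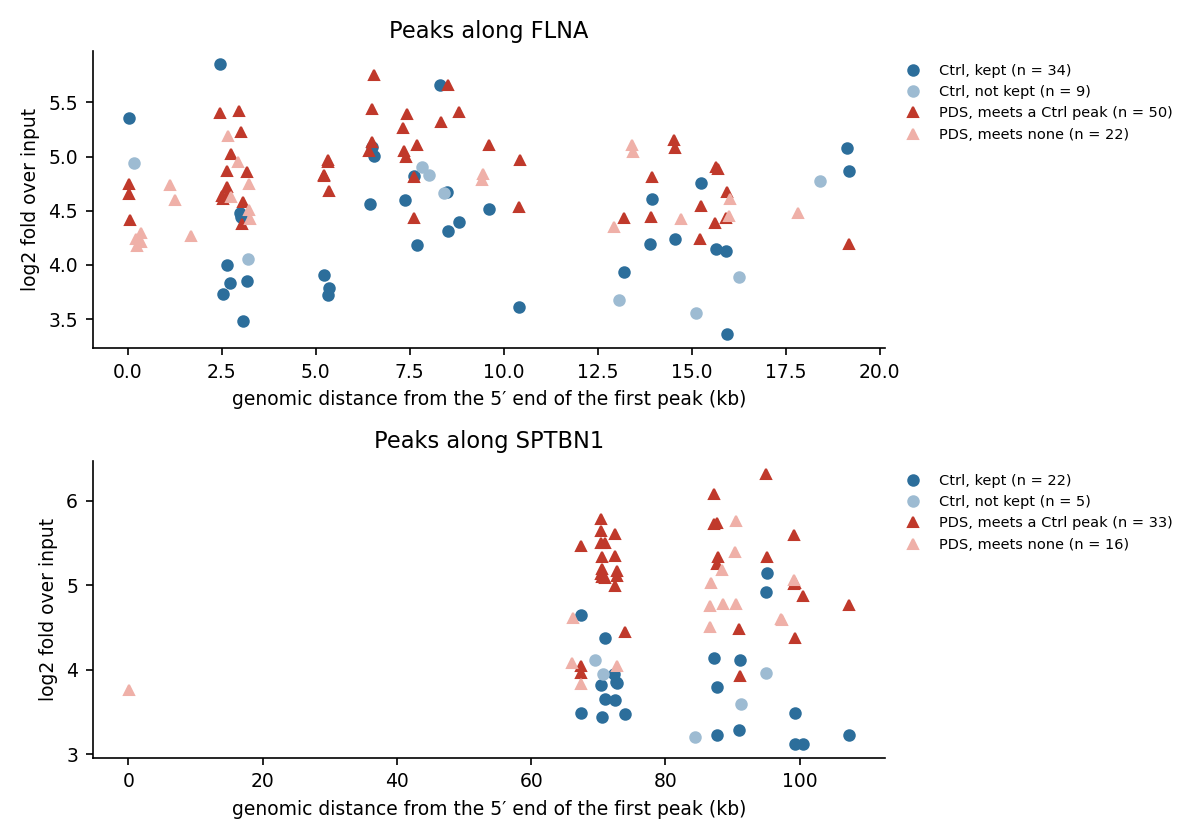
Peaks along FLNA (top) and SPTBN1 (bottom): distance in kb from the 5′ end of the first peak in transcript direction against log2 fold over input. Circles are untreated peaks (dark kept, pale not kept) and triangles PDS peaks (dark if they meet an untreated peak); in SPTBN1 the kept untreated peaks have a median of 3.73 and the PDS peaks that meet an untreated peak a median of 5.195.

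The other cytoskeletal mRNAs leaned the same way. Of 17 genes on this list, all located, 14 held an untreated peak and 13 a kept one. They kept 106 of 162 peaks (65.4%, against 51.5% of all untreated peaks), without comparison at like strength or crowding. The partner was higher in 94 of the 106 (88.7%, against 66.5% of all kept peaks) and the median difference was 0.91. Without SPTBN1 it was higher in 72 of 84 (85.7%), and without both SPTBN1 and FLNA in 45 of 50. At an untreated fold of 4 or more, 34 of 45 cytoskeletal partners were higher (median difference 0.57), beside 53 of 171 kept peaks outside the list (−0.30). Without SPTBN1 and FLNA it was 11 of 15 in that class, with a smaller median difference of 0.23. These peaks share few genes and the list was written with earlier results of the data known.

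By member, DYNC1H1, the heavy chain of cytoplasmic dynein, had 6 of 6 partners higher (median difference 0.81), PLEC 13 of 14 (1.15, but 0.77 with the longest-overlap partner) and ACTB, beta-actin, 7 of 7 (0.46, but 0.16 with the longest-overlap partner). With the most enriched partner all 3 stood above the median of all kept peaks, 0.25; with the longest-overlap partner ACTB stood below the corresponding 0.20. Against the trend, ACTG1 (gamma-actin) had 1 of 3 higher with a median of −0.38. ACTN4 (alpha-actinin 4) held the largest drop of any kept peak: 5.07 in Ctrl and 3.19 in PDS on chromosome 19 at 39220144 to 39220285, where the partner covered 22.5% of it. The single kept VIM (vimentin) peak had 4.12 and 3.97. For MYH9, the non-muscle myosin heavy chain, 3 of 3 untreated peaks were kept beside 33 PDS peaks, and for alpha spectrin SPTAN1 2 of 3 beside 32, so that in both the kept sites were a small part of the PDS sites. Of the rest of the list, TLN1 held 1 untreated peak that was not kept, MYH10 17 PDS peaks alone, and TUBA1A and TUBB no peak.

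**Figure D5:**
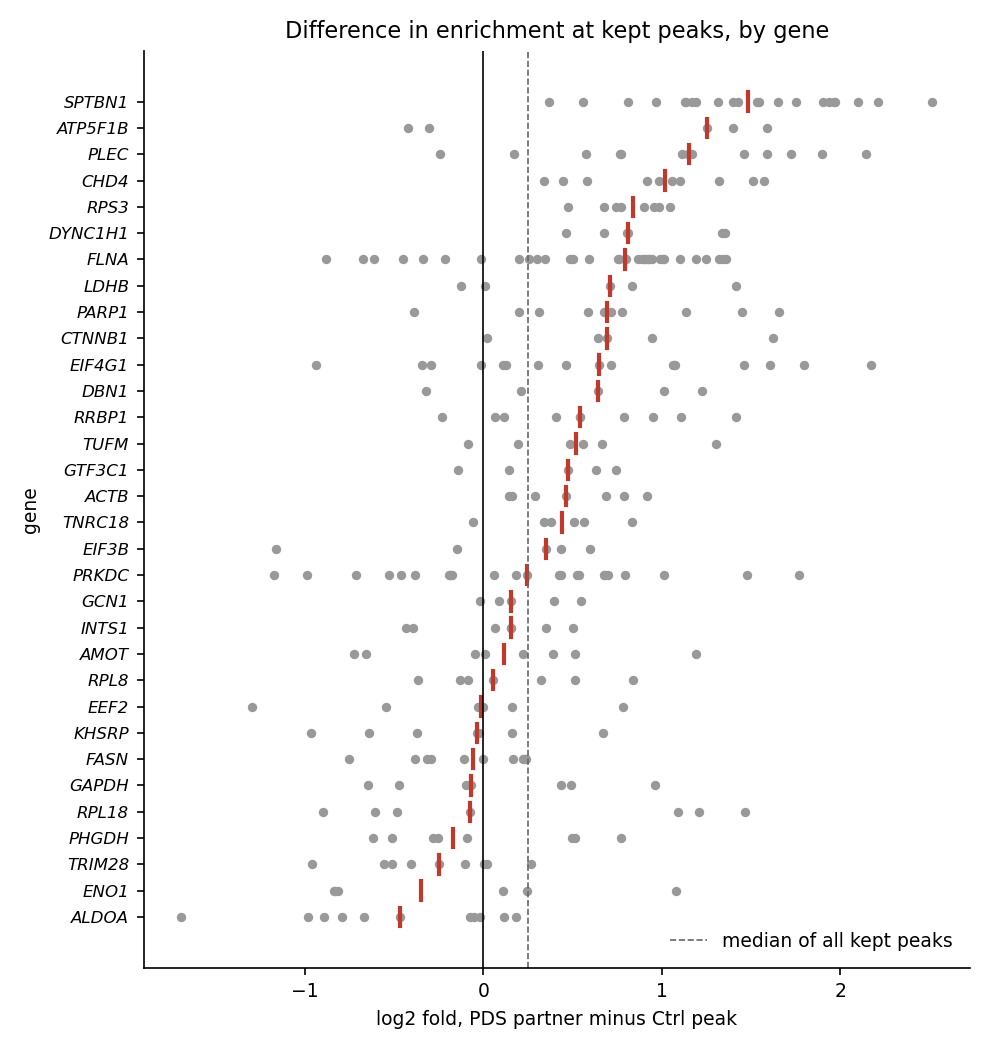
Difference in log2 fold over input, PDS partner minus untreated peak (horizontal axis), at each kept peak (grey points) of the genes with at least 5 kept peaks, 2 of the 34 not drawn, ordered by their median (red bar). The solid line is 0 and the dashed line the median of all kept peaks, 0.25; SPTBN1 is at the top with a median of 1.48 and ALDOA at the bottom with −0.47.

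Among the 34 genes with at least 5 kept peaks, the median difference was above 0 in 25 and below 0 in 9, with either choice of partner. In 8 genes every partner was higher and in 0 every partner was lower. CHD4 had 10 of 10 higher, from 0.34 to 1.57 with a median of 1.02. CTNNB1 had 5 of 5 higher (median 0.69), although it kept few of its peaks. In ATP5F1B, the beta subunit of mitochondrial ATP synthase, 3 of 5 were higher with a median of 1.25, and its most enriched untreated peak, at 5.23, had a partner at 4.81.

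On the lower side, ALDOA had 9 of 11 partners lower and a median difference of −0.47. Its most enriched peak, on chromosome 16 at 30080629 to 30080706, stood at 5.49 in Ctrl and 3.79 in PDS. TRIM28, a corepressor that binds zinc-finger proteins, had 6 of 9 lower (median −0.25), including its peak at 59060788 to 59060934 with 5.94 and 4.98. PHGDH, the entry enzyme of serine synthesis, had 5 of 8 lower (−0.17) and KHSRP, a decay factor of AU-rich mRNAs, 5 of 7 (−0.03). KHSRP values were thus centred near 0.

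RPL30, a protein of the large ribosomal subunit, held the most enriched kept peaks and all had lower partners. Its 4 kept peaks, within 99057602 to 99057757 on the minus strand of chromosome 8, had untreated log2 folds of 6.27, 6.26, 6.47 and 6.26 in order of position. Their partners had 5.26, 5.26, 5.48 and 5.49. All 4 kept peaks had a −log10 p of 400 in Ctrl, against 52.2 to 54.7 in their partners. The first 2 kept peaks share a partner, so the 4 values are not independent.

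Of 57 ribosomal protein genes located, 22 held an untreated peak and 18 a kept one. They kept 46 of 62 peaks (74.2%, against 51.5% of all untreated peaks). The exact 95% interval, 61.5 to 84.5%, covers counting error only. RPS3, RPL8, RPL18 and RPL30 held 8, 7, 7 and 4 of the kept peaks, and peaks of 1 gene are not independent. Stronger and more crowded peaks were kept more often over the whole list. The kept shares of this and the other gene lists were not compared with peaks of like strength or crowding. The partner was higher in 30 of 46 (65.2%), near the 66.5% of all kept peaks. RPS3, of the small subunit, had 8 of 8 higher with a median difference of 0.84. RPL18 had 3 of 7 higher (−0.08) and RPL8 4 of 7 (0.06), so members differed. By untreated fold, 13 of 14 partners were higher below 3.5, 13 of 14 between 3.5 and 4, and 4 of 18 from 4 upward (4 of 14 without RPL30). RPL13A, RPL27A, RPL29 and RPS12 held untreated peaks of which none was kept, and 8 genes had PDS peaks alone.

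Glycolytic enzymes had higher and lower partners in near equal number, which differed by untreated fold. Of 16 genes, 8 held an untreated peak and 7 a kept one (37 of 56 peaks kept, 66.1%, against 51.5% of all). The partner was higher in 19 of 37, with a median difference of 0.01. Below an untreated fold of 3.5, 11 of 12 were higher, and from 4 upward 3 of 17 with a median of −0.65, lower than the −0.18 of all kept peaks there. Without ALDOA 17 of 26 were higher with a median of 0.25. In ENO1, enolase, 3 of 6 were higher (median −0.35), in GAPDH 3 of 7 (−0.07) and in PKM, pyruvate kinase, 4 of 4 (0.67). LDHA held 2 untreated peaks and kept neither.

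Translation factors kept 34 of 49 peaks (69.4%, against 51.5% of all), and each of the 7 factors with an untreated peak kept at least 1. The partner was higher in 21 of 34, with EIF4G1 giving 13 of its 17. Below an untreated fold of 3.5, 9 of 9 were higher, and from 4 upward 1 of 12 (0 of 7 without EIF4G1), beside 40.3% of all kept peaks there. Without EIF4G1, 8 of 17 were higher and the median difference was −0.0024. EIF4G1 itself had a median difference of 0.65, and its peak on chromosome 3 at 184052555 to 184052627 went from 3.59 in Ctrl to a partner at 5.76. EIF5A, which helps ribosomes through proline stretches, had 5.02 and 4.46 in Ctrl and partners at 4.17 and 3.26. These partners covered only 7.4% and 34.8% of the EIF5A peaks. EEF2, the translocation factor, had 2 of 6 higher (−0.02). EIF3B kept all 5 peaks, with untreated folds from 3.03 to 5.19, and its most enriched peak had a partner at 4.02.

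The DNA repair list kept 34 of 43 peaks (79.1%, against 51.5% of all untreated peaks). Of the kept peaks, 23 lay in PRKDC, 10 in PARP1 and 1 in XRCC6, a subunit of the Ku heterodimer. PRKDC and PARP1 held 27 and 12 of the 43 untreated peaks. The share was not compared with peaks of like strength or crowding. MSH6 and XRCC5 held 1 untreated peak each, which was not kept. PRKDC had 14 of 23 partners higher with a median of 0.25, equal to that of all kept peaks, and a wide range from −1.17 to 1.77. PARP1 had 9 of 10 higher with a median of 0.69. Fatty acid synthesis kept 14 of 26 (53.8%, near the 51.5% of all), in FASN (4 of 10 partners higher, median −0.06) and SREBF2, a sterol-sensing transcription factor (1 of 4, −0.18). ACLY and SCD held 1 untreated peak each, which was not kept.

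Chaperones kept 6 of 10 peaks (60.0%, exact 95% interval 26.2 to 87.8%). Of these, 3 lay in HSP90AB1 and 1 each in HSP90AA1, HSPA9 and HSPD1. All 6 partners were higher (66.5% over all kept peaks), with a median difference of 0.22. Splicing factors kept 4 of 12 (33.3%, 9.92 to 65.1%), 2 of them in SF3B2. Both intervals include the 51.5% of all untreated peaks. The 5 untreated peaks of PRPF8, the large scaffold of the spliceosome, were among those not kept, though the PDS list held 7 peaks there.

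Messages of stress granule and quadruplex-binding proteins held 3 untreated peaks per list, of which 1 and 2 were kept, too few to set against the 51.5% of all. Among 14 located stress granule genes, FXR2, a relative of the fragile X protein, held the single kept peak, with 3.17 in Ctrl and 3.73 in PDS. G3BP1 and CAPRIN1, its granule partner, held 1 PDS peak each and no untreated one, PABPC1 held 2 untreated peaks that were not kept, and 10 others no peak. Among 11 located genes of quadruplex-binding proteins, NPM1 (nucleophosmin) and SERBP1 held 1 kept peak each, with 3.06 and 4.31 for NPM1 and 3.61 and 3.11 for SERBP1. NCL, nucleolin, held 14 PDS peaks and no untreated one.

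The most enriched kept peaks, taken 1 per gene, were held by RPL30, TRIM28, FLNA, AMOT, PRKDC, EIF4G1, ALDOA, IARS2, C1QBP, ATP5F1B, EIF3B, INTS1, SPTBN1, DBN1 and PLEC. In these 15 peaks the partner was lower in 10 and higher in 5, beside 7 of 32 higher among all kept peaks at a fold of 5 or more. IARS2, the mitochondrial isoleucyl-tRNA synthetase, had 5.44 in Ctrl and 5.59 in PDS on chromosome 1 at 220267512 to 220267668, with 87.9% of the peak covered. AMOT, a junction protein that binds YAP, had 5.56 and 4.84 on chromosome X at 112022370 to 112022487, which 4 PDS peaks covered in full. C1QBP, a mitochondrial matrix protein, had 5.30 and 5.14, but its peak at 5342160 to 5342271 on chromosome 17 and its partner shared only 3 nt. INTS1, of the Integrator complex, had 5.16 and 5.23, and DBN1, the actin-binding drebrin, 5.12 and 5.33.

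Beyond the genes above, large single differences were seen at a few sites. AKAP12, a scaffold for protein kinase A, had 3.03 in Ctrl and 5.24 in PDS on chromosome 6 at 151672642 to 151672813. ELAC2, which trims tRNA ends, had 3.12 and 4.97. Lower partners were seen for LRPPRC, a mitochondrial mRNA-binding protein, with 5.05 and 3.32 on chromosome 2 at 44222938 to 44223071. The mRNA-binding protein IGF2BP1 had 4.39 and 3.07. The histone demethylase KDM5C had 5.06 and 3.77, or 3.41 with the longest-overlap partner. These sites were taken as the extremes of the 732 differences, which favours large values. Like all kept peaks here, they have no replicate support.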

How the data were processed

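seCLIP of G3BP1 was made from untreated and PDS-treated HEK293T cells. Per the submitters' processing notes, cutadapt, UMI-tools and STAR were used with build hg19; which tool called peaks, and how it joined replicates, is not stated there. The authors deposited a −log10 p and a log2 fold per peak, read here from their ranges as immunoprecipitate against input; the files carry no header, and how these were computed is not recorded. Library depth is unknown.

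Overlaps were computed with pandas 2.3.3, numpy 2.4.6 and scipy 1.17.1 under python 3.11.15 and checked against a brute-force search on simulated peaks, of which all 400 planted ones were found. Starts were read as counted from 0. Partners are the most enriched overlapping PDS peaks; the longest overlap was the alternative. The p-values are the authors' own.

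Gene windows were written from general knowledge of hg19 and checked against RefSeq tables (GRCh38.p14) for chromosome, strand, length and order: 231 of 235 were used, the 4 others differing in length; strand could be compared for 194 and agreed in each. Coordinates were not converted.

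Named were the 15 most enriched kept peaks and the 5 largest differences each way (1 per gene), the 10 genes with most kept peaks, the 3 longest and shortest overlaps, and list genes; other genes were chosen after their values were seen. Members and lists were chosen with earlier results of these data known. Nothing says whether replicates were separate cultures. Single values of 2 genes of the cytoskeletal list are not reported here.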

Additional observations from a re-analysis of the deposited data

How the results depend on the processing

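Of 20 alternative values, 10 stayed within the 95% interval of the main value (1.5 times for a count) and 10 moved; no difference turned its sign. The kept percentage was 40.0 when each peak had to cover at least 50% of the other, 45.4 with the stricter threshold (log2 fold from 4 and −log10 p from 5 upward, in both lists), 58.1 with a PDS peak within 100 nt and 36.3 with the PDS list at the length of the Ctrl list. The median log2 fold of kept peaks was 4.44 with the stricter threshold, which removes lower values. The median PDS minus Ctrl difference was 0.20 under mutual cover of 50%, 0.15 with the stricter threshold, 0.15 in pairs of 1 Ctrl and 1 PDS peak and 0.20 without FLNA, PRKDC, SPTBN1, EIF4G1 and PLEC. Counting only PDS peaks that overlapped by at least 10 nt gave a median covered share of 93.6% over 690 kept peaks. This setting drops short peaks and also removes the cover from shorter overlaps at the peaks that remain. The cause of the other moves was not tested. The alternatives for the cytoskeletal list were chosen after seeing the data and gave 84.0 to 93.1% of partners higher. No paired analysis was possible because each list holds a single value per peak and none per replicate, which also means that leaving out a replicate could not be tried. The 3 alternatives on transcript regions and sequence were not run, since an hg19 annotation and genome were not used here. Unknown depth limits what a missing PDS peak shows.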

Other observations

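Some genes outside the lists of the report also held kept peaks. The ones given here were picked after their values were seen. For reference, 51.5% of all untreated peaks were kept, and 66.5% of all kept peaks had a higher partner. TUFM, the mitochondrial elongation factor, kept 6 of 11 peaks with 5 of 6 partners higher (median difference 0.52), and CYC1, of respiratory complex III, kept 3 of 3 with all partners higher (0.78; 0.14 with the longest-overlap partner). GCN1, which acts at stalled ribosomes, kept 5 of 9 (0.16). HUWE1, a large ubiquitin ligase, kept 3 of 11 peaks (27.3%), while the PDS list held 21 peaks there. All 3 of its partners were lower (median −0.16). MCM2, of the replicative helicase, kept 4 of 5 with all partners higher (0.81). Of these kept peaks, 3 share 1 partner, so the values are not independent.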
